A study of Mus musculus with 12 samples.

Results

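The 8 genes at the core of the NRF2 antioxidant response were followed in the livers of 12 male C57BL6J mice. They are Nfe2l2, Keap1, Nqo1, Gclc, Gclm, Hmox1, Srxn1 and Txnrd1. The genes were chosen by name, with earlier results of these data known. They were read through the probe sets whose single gene symbol in the platform annotation is among these 8. They make up 8 of the 13788 genes tested and 17 of the 34945 probe sets with a single symbol. The brightest probe set of a gene, by its mean on 12 arrays, was used, and any others served as a check. C57BL6J is a common inbred laboratory strain, and each mouse was measured on its own expression array at 30 weeks of age. Penicillin mice drank water with penicillin at 6.7 mg/L, a low dose, and control mice received no antibiotic. High-fat mice were moved at 17 weeks from chow, with 13.5% of energy as fat, to a diet with 45%, and chow mice stayed on chow. The 4 groups of 3 mice are called penicillin high-fat, control high-fat, penicillin chow and control chow. The comparisons ask whether penicillin in the water altered these genes on either diet and whether high-fat feeding did so in either kind of mouse.

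NRF2, encoded by Nfe2l2, is a transcription factor that is made continuously and destroyed continuously. KEAP1 binds it in the cytoplasm and presents it to a ubiquitin ligase, and when oxidants or electrophiles modify cysteines of KEAP1, NRF2 escapes, enters the nucleus, pairs with a small MAF protein and binds antioxidant response elements. Its classical targets make glutathione, reduce quinones, repair oxidised proteins and break down heme, and in liver they are used as readouts of the response because NRF2 itself is regulated mainly through the stability of the protein. Messenger RNA levels of Nfe2l2 and Keap1 therefore do not measure the activity of the protein.

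The 250 bases before the annotated start were available from RefSeq (build GRCm38.p6) for 6 of the 8 genes, and are shown for Nqo1, the gene with the firmest difference below, and for Srxn1 and Gclm, which hold matches to an antioxidant response element. The letters searched on both strands were TGACNNNGC, the core of the element, and TGAGNNNGC, a variant that can overlap the AP-1 motif TGAGTCA. Capitals mark matches to TGACNNNGC or TGAGNNNGC, and each sequence reads 5′ to 3′ on the strand of its gene.
Nqo1, chr8:107403206-107403455, minus strand: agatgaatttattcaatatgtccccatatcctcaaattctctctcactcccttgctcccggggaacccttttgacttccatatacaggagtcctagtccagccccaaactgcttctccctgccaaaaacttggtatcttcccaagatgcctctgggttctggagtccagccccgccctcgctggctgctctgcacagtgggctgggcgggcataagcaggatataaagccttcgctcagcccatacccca
Srxn1, chr2:152105274-152105523, plus strand: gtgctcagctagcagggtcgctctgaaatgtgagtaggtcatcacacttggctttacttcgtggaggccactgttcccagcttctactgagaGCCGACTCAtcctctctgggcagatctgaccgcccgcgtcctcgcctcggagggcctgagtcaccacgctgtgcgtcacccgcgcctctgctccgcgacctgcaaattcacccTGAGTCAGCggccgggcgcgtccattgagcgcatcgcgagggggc
Gclm, chr3:122245307-122245556, plus strand: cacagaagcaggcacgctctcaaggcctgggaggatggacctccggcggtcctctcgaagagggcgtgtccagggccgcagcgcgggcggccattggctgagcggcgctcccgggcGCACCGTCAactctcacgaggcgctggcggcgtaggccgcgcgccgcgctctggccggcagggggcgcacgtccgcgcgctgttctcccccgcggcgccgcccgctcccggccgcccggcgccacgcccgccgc
The Srxn1 window held 2 matches to TGAGNNNGC, and the one at position -45 from the start, TGAGTCAGC, overlaps TGAGTCA, which occurs again at position -102. The Gclm window held 1 match to TGACNNNGC on the opposite strand. Single matches to TGACNNNGC were also present before Nfe2l2 (TGACTCCGC) and before 1 of 3 annotated starts of Txnrd1 (GCTTTGTCA, opposite strand). Of 32851 promoter windows of this length, 10.2% held TGACNNNGC, 14.4% held TGAGNNNGC, 23% held at least 1 of these and 4.46% held TGAGTCA. The Nqo1 window held none of the 3, which says only that these letters are not in these 250 bases.

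Arrays of a group correlated at 0.991 to 0.996 over all probe sets. Hepatocyte markers were high on every array, with albumin (Alb) at a log2 value of 14.98 to 15.05, while the adipocyte hormones Adipoq and Lep stayed at or below 3.58 and 4.46, under the filter value of 5, and a further adipocyte gene, Retn, stood at 6.12 to 6.46. Penicillin chow 1 stood apart by acute-phase genes: the mean of 17 such genes was 12.72 in that mouse, against 11.4 to 12.23 in the other 11. Its mean of 3 neutrophil genes was 7.85, against 5.33 to 6.46 elsewhere, through S100a8 at 9.14 and S100a9 at 9.29. The third gene, Elane, stood at 5.12 in that mouse, inside the 4.96 to 5.20 of the others. A further neutrophil gene, Mpo, did not pass the filter. The part of these genes in the member values of that mouse was not tested. The 18S control signal was low, at 11.76 to 11.81, in penicillin high-fat 2 and penicillin chow 2 and 3, against 12.67 to 13.87 elsewhere. Without the 3 arrays of low 18S signal penicillin chow 1 is the 1 mouse left in its group, so that p-values of comparisons with penicillin chow then assume that it varies like the mice of the other groups. All values below are the authors' RMA values on the log2 scale, differences are in log2 units with the standard error of the fit, n = 3 mice per group, and adjusted p-values come from limma with Benjamini-Hochberg adjustment over the 13788 genes. Values of different genes come from different probes and are not compared with each other.

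**Figure D1:**
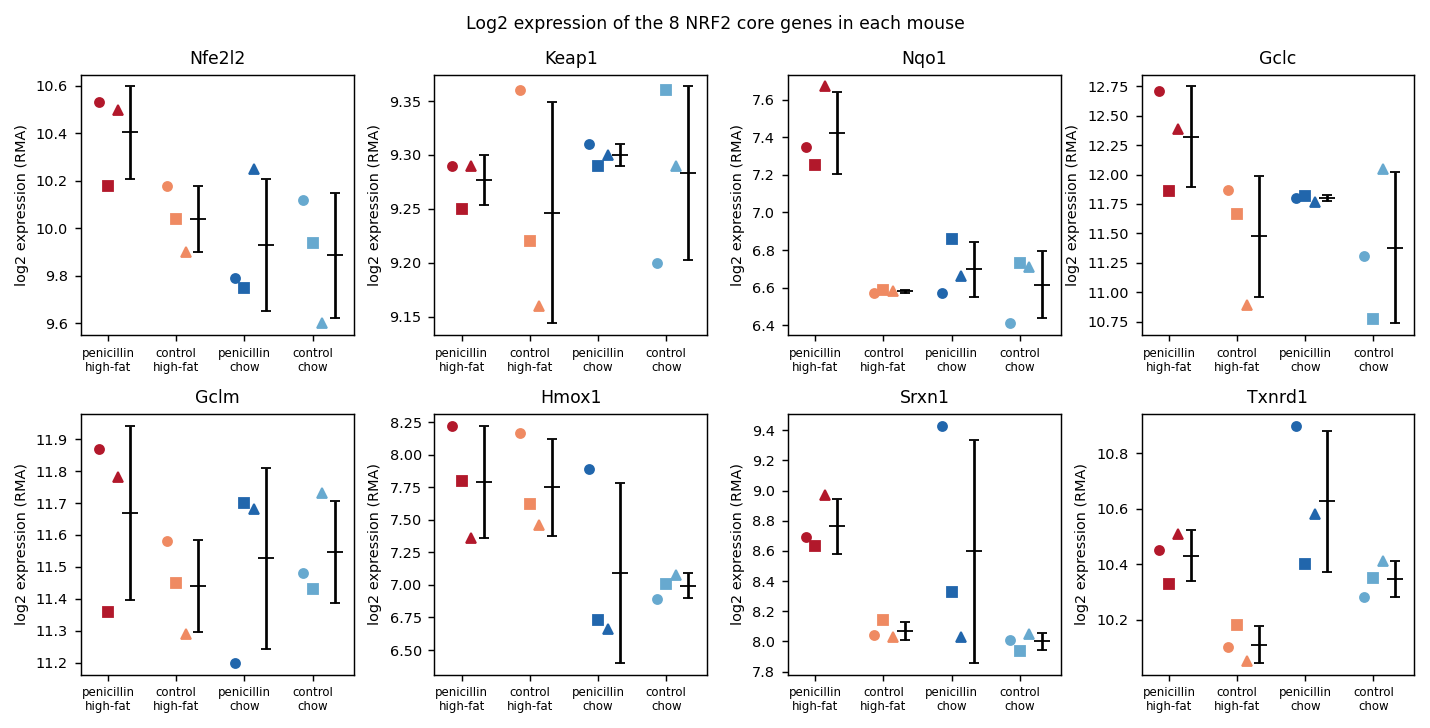
Log2 expression of each of the 8 genes (vertical axes, with a scale of their own) in the 4 groups of mice. Circles, squares and triangles are replicates 1, 2 and 3 of a group, and the bar beside them is the mean with the SD (n = 3). The 3 penicillin high-fat mice lie above the 9 others for Nqo1, penicillin chow 1 is highest for Srxn1 and Txnrd1, and Keap1 spans 0.20.

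Nqo1, which encodes a quinone reductase and is the usual liver readout of NRF2, was the 1 member called for penicillin on high-fat diet. The differences of all 8 members were positive there. It stood at 7.35, 7.25 and 7.67 in penicillin high-fat mice, against 6.57, 6.59 and 6.58 in control high-fat mice. On chow it stood at 6.57, 6.86 and 6.66 in penicillin mice, against 6.41, 6.73 and 6.71 in control mice. The 3 penicillin high-fat mice thus lay above all 9 others, and the remaining 3 groups overlapped. The difference on high-fat diet was 0.84 ± 0.12, a 1.8-fold higher level (adjusted p = 0.0119). Of all genes tested, 0.341% were called in this comparison, 0.254% higher and 0.087% lower. Refitted 12 times with a different array removed, the value was 0.72 to 0.93, and the call was lost in 3 refits, those lacking control high-fat 1, 2 or 3, with an adjusted p of at most 0.0586. Without the 3 arrays of low 18S signal it was 0.93 (adjusted p = 0.0167). The arrays measured whole liver, where a change in the number of cells of a type and a change in RNA per cell cannot be told apart.

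On chow the penicillin difference of Nqo1 was 0.08 ± 0.12 (95% interval -0.18 to 0.35), and 0.00725% of all genes were called. High-fat diet gave a difference of 0.73 ± 0.12 in penicillin mice (adjusted p = 0.00503), where 8.32% of all genes were called, 6.43% higher and 1.89% lower. The call was kept in 12 of 12 such refits. Without the low-18S arrays the difference was 0.94, a comparison with penicillin chow 1 alone, the lowest of its group for Nqo1 at 6.57. In control mice high-fat diet gave -0.03 ± 0.12 (95% interval -0.30 to 0.23; 0.899% of all genes called, 0.247% lower). The interaction, the penicillin difference on high-fat diet minus that on chow, was 0.76 ± 0.17 and did not pass (adjusted p = 0.256; 0.0435% of all genes called, 0.0363% higher), so the penicillin difference is not shown to differ between diets. Ordered by mean, the groups were penicillin high-fat at 7.43 ± 0.22, penicillin chow at 6.70 ± 0.15, control chow at 6.61 ± 0.18 and control high-fat at 6.58 ± 0.01 (SD, n = 3 each), of which the last 3 overlap. Averaged over treatments, high-fat diet gave 0.35 ± 0.09 (adjusted p = 0.0204; 14.5% of all genes called, 9.63% higher and 4.85% lower), which combines a rise in penicillin mice with a difference in control mice that did not pass. Averaged over diets, penicillin gave 0.46 ± 0.09 and did not pass (adjusted p = 0.0743; 0.145% of all genes called).

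The regulators came next. Nfe2l2 stood at 10.53, 10.18 and 10.50 in penicillin high-fat mice, against 10.18, 10.04 and 9.90 in control high-fat mice, and at 9.79, 9.75 and 10.25 in penicillin chow mice, against 10.12, 9.94 and 9.60 in control chow mice. Neighbouring groups overlapped in each case, and the penicillin difference on high-fat diet, 0.37 ± 0.16, did not pass (adjusted p = 0.479). High-fat diet in penicillin mice gave 0.47 ± 0.16 (adjusted p = 0.0995) at this probe set. The second Nfe2l2 probe set was dimmer and tighter, at 7.10, 7.12 and 7.12 in penicillin high-fat mice, 6.55, 6.82 and 6.60 in control high-fat mice, 6.37, 6.25 and 5.91 in penicillin chow mice and 6.25, 6.30 and 6.64 in control chow mice. At that set the penicillin high-fat mice lay above all others, high-fat diet in penicillin mice passed when every probe set was tested on its own (0.94 ± 0.13, adjusted p = 0.00232), and penicillin on high-fat diet gave 0.45 ± 0.13 (adjusted p = 0.248). With the 2 probe sets averaged, Nfe2l2 passed for penicillin on high-fat diet at 0.41 (adjusted p = 0.0282) and for high-fat diet in penicillin mice at 0.71 (adjusted p = 3.04e-04). High-fat diet averaged over treatments gave 0.31 at the set used (adjusted p = 0.0915), 0.60 ± 0.09 at the second set (adjusted p = 0.00262) and 0.46 with the sets averaged (adjusted p = 3.42e-04). The Nfe2l2 call therefore depends on the probe set.

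Keap1, the adaptor that hands NRF2 to its ligase, was the steadiest member. It stood at 9.29, 9.25 and 9.29 in penicillin high-fat mice, 9.36, 9.22 and 9.16 in control high-fat mice, 9.31, 9.29 and 9.30 in penicillin chow mice and 9.20, 9.36 and 9.29 in control chow mice. All group means lay between 9.25 and 9.30, and its within-group SD of 0.07 was at the 6.53 percentile of all genes. The penicillin difference was 0.03 on high-fat diet (95% interval -0.13 to 0.19) and 0.02 on chow (95% interval -0.14 to 0.17). The penicillin high-fat values lay just under the penicillin chow values without overlap, at a difference of -0.02 that did not pass (adjusted p = 0.869). Its second probe set stood between 7.62 and 7.90 and gave 0.04 ± 0.08 for penicillin on high-fat diet.

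The 2 subunits of glutamate-cysteine ligase, the rate-limiting enzyme of glutathione synthesis, varied widely between mice of the same group. Gclc, the catalytic subunit, stood at 12.71, 11.86 and 12.39 in penicillin high-fat mice and at 11.87, 11.66 and 10.89 in control high-fat mice. It stood at 11.80, 11.82 and 11.77 in penicillin chow mice and at 11.31, 10.77 and 12.05 in control chow mice. Its within-group SD of 0.46 was at the 98.2 percentile of all genes, and on both diets the penicillin and control mice overlapped. The penicillin difference was 0.84 ± 0.32 on high-fat diet (adjusted p = 0.378), the same size as that of Nqo1 but with a wider error, and 0.43 ± 0.32 on chow (adjusted p = 0.797). Removing single arrays gave 0.55 to 1.07 on high-fat diet and 0.12 to 0.76 on chow. The second Gclc probe set gave 0.78 ± 0.31 and 0.30 ± 0.31 for the same comparisons.

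Gclm, the modifier subunit, stood at 11.87, 11.36 and 11.78 in penicillin high-fat mice, against 11.58, 11.45 and 11.29 in control high-fat mice. It stood at 11.20, 11.70 and 11.68 in penicillin chow mice, against 11.48, 11.43 and 11.73 in control chow mice. The groups overlapped throughout, with 0.23 ± 0.16 for penicillin on high-fat diet (adjusted p = 0.699) and -0.02 ± 0.16 on chow (adjusted p = 0.988). Penicillin chow 1, highest of all 12 mice for Srxn1 and Txnrd1, was the lowest for Gclm at both of its probe sets.

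Srxn1 encodes sulfiredoxin, which reduces over-oxidised peroxiredoxins. It stood at 8.69, 8.63 and 8.97 in penicillin high-fat mice, against 8.04, 8.14 and 8.03 in control high-fat mice. On chow it stood at 9.43, 8.33 and 8.03 in penicillin mice, against 8.01, 7.94 and 8.05 in control mice. The penicillin mice on high-fat diet were all above the 3 controls, while on chow penicillin 1 was far above its group and penicillin 3 lay inside the control range. The difference on high-fat diet, 0.69 ± 0.27, did not pass over all genes (adjusted p = 0.393). Without penicillin chow 1, which takes part in that comparison only through the shared estimate of the spread, the same difference of 0.69 passed (adjusted p = 0.0145). Without the 3 arrays of low 18S signal, an alternative added after the data were seen, it was 0.76 (adjusted p = 0.0149). On chow the difference was 0.60 ± 0.27 with penicillin chow 1 (adjusted p = 0.640) and 0.18 without that mouse (adjusted p = 0.778). The diet difference in penicillin mice was 0.16 ± 0.27 with that mouse (adjusted p = 0.751) and 0.58 without it (adjusted p = 0.0121). Without the low-18S arrays it was -0.61, a comparison with penicillin chow 1 alone.

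Srxn1 had 4 probe sets, and they differed. A pair of sets ran with the one used. The first gave 5.96, 6.12 and 6.32 in penicillin high-fat mice against 5.36, 5.42 and 5.53 in control high-fat mice. The other gave 7.74, 7.86 and 7.98 in penicillin high-fat mice against 7.07, 7.39 and 7.46 in control high-fat mice. At both, the penicillin mice lay above the controls, with differences of 0.70 ± 0.29 and 0.55 ± 0.26 that did not pass. The remaining set lay between 6.58 and 6.81 on all 12 arrays and gave -0.09 ± 0.07.

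Txnrd1, the cytosolic thioredoxin reductase, keeps thioredoxin in its reduced form. It stood at 10.45, 10.33 and 10.51 in penicillin high-fat mice, 10.10, 10.18 and 10.05 in control high-fat mice, 10.90, 10.40 and 10.58 in penicillin chow mice and 10.28, 10.35 and 10.41 in control chow mice. On high-fat diet the penicillin mice lay above the controls without overlap, and the control high-fat mice also lay below the control chow mice without overlap. The penicillin difference was 0.32 ± 0.11 on high-fat diet (adjusted p = 0.341) and 0.28 ± 0.11 on chow (adjusted p = 0.618), and high-fat diet gave -0.24 ± 0.11 in control mice (adjusted p = 0.343) and -0.20 ± 0.11 in penicillin mice (adjusted p = 0.298). None of these passed, and Txnrd1 was the 1 target whose values ran lower on high-fat diet in both kinds of mice. Without penicillin chow 1 the chow difference was 0.15 (adjusted p = 0.763). A second probe set lay between 4.96 and 6.0 and gave 0.00 ± 0.21 for penicillin on high-fat diet, and the third was under the filter.

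**Figure D2:**
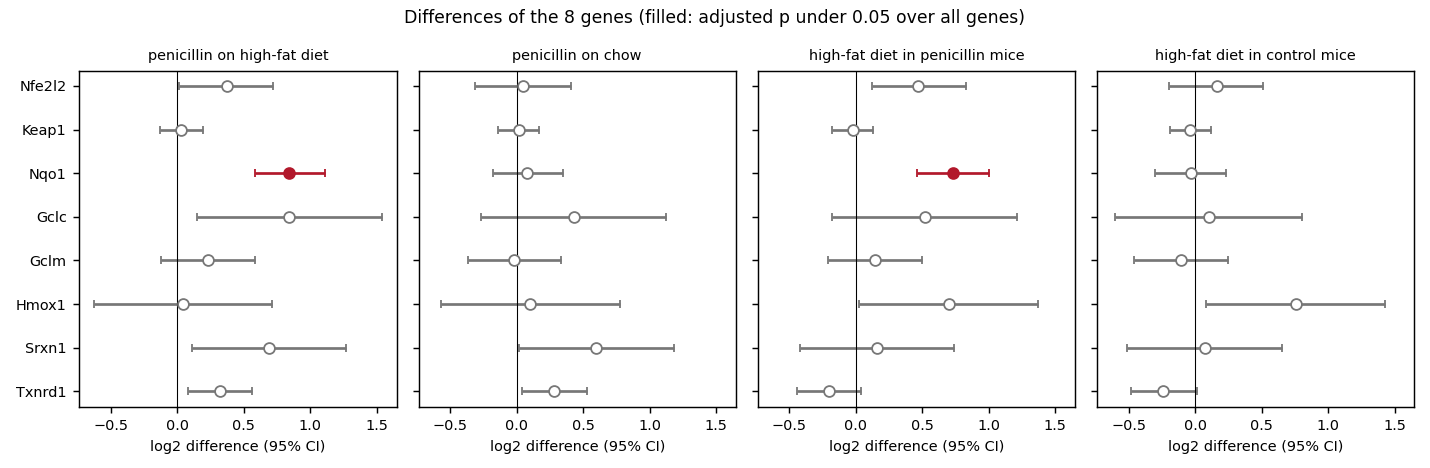
Log2 differences of the 8 genes with 95% confidence intervals in 4 comparisons, each panel giving the first-named condition minus its control. Filled red points passed at an adjusted p under 0.05 over all genes. Nqo1 is filled in the 2 panels that hold the penicillin high-fat mice, at 0.84 and 0.73, and no other gene is.

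On high-fat diet all 8 members thus had a positive penicillin difference, with a median of 0.34 against -0.001 over all 13788 genes. Of the 8, 1 was called, against 0.341% of all genes. limma gave 5 of 8 at an unadjusted p under 0.05, against 10.1% of all genes. The 8 members were chosen with earlier results of these data known, which limits every comparison of their counts with all genes. The penicillin mice lay entirely above the controls for 3 of 8 members (Nqo1, Srxn1 and Txnrd1) and entirely below for 0 of 8, while 9.5% of all genes lay entirely above and 7.85% entirely below. On chow 7 of 8 differences were positive with a median of 0.09. There 0 of 8 were called, where 0.00725% of all genes were called, so this count says little. The groups were apart for 0 of 8, where 4.79% of all genes lay entirely above and 7.04% entirely below. At an unadjusted p under 0.05 limma gave 2 of 8 on chow, Srxn1 and Txnrd1, against 7.62% of all genes. Among the penicillin high-fat mice, number 1 was the highest of the 12 mice for 4 members (Nfe2l2, Gclc, Gclm and Hmox1) and number 3 was among the 3 highest for 6. Number 2, the one with a low 18S signal, was among the 3 highest for Nqo1 alone. Penicillin chow 1 was among the 3 highest for 4 members and the highest for 2.

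**Figure D3:**
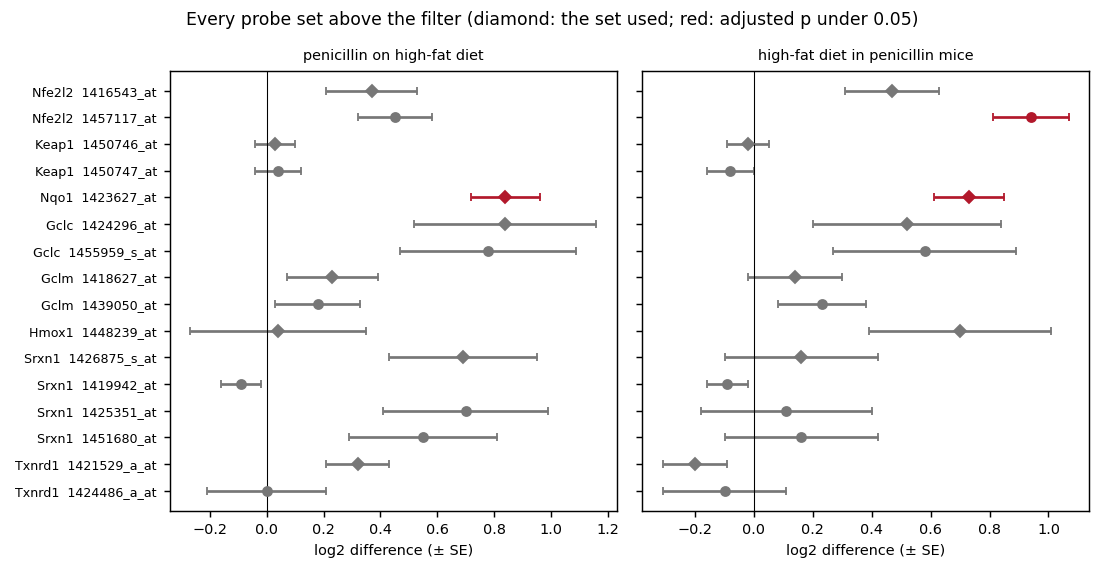
Log2 differences with standard errors for each of the 16 member probe sets above the filter, for penicillin on high-fat diet and for high-fat diet in penicillin mice. Diamonds are the probe sets used and circles the others, and red marks an adjusted p under 0.05 when every probe set is tested on its own. The second Nfe2l2 set is red at 0.94 where the first stands at 0.47, and 1 of 4 Srxn1 sets stands near 0.

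Hmox1, which encodes the inducible heme oxygenase, was the member that was higher on high-fat diet averaged over treatments with no call for penicillin. It stood at 8.22, 7.80 and 7.36 in penicillin high-fat mice and at 8.17, 7.62 and 7.46 in control high-fat mice. It stood at 7.89, 6.73 and 6.66 in penicillin chow mice and at 6.89, 7.01 and 7.08 in control chow mice. All 6 high-fat mice lay above 5 of the 6 chow mice, and penicillin chow 1 lay among the high-fat mice. Averaged over treatments, high-fat diet raised Hmox1 by 0.73 ± 0.22, or 1.65-fold (adjusted p = 0.0449). That call held in 3 of 12 refits with an array removed, with values of 0.62 to 0.92 and an adjusted p of at most 0.106, and was lost on removing control chow 1, 2 or 3, penicillin chow 2 or 3, penicillin high-fat 1 or 2, or control high-fat 1 or 2. Without penicillin chow 1 it was 0.92 (adjusted p = 0.00331), and without the 3 arrays of low 18S signal, which leaves penicillin chow 1, with its high Hmox1, alone in its group, it was 0.33 (adjusted p = 0.335). Within control mice the diet difference was 0.76 ± 0.31 (adjusted p = 0.272), with the groups apart. Within penicillin mice it was 0.70 ± 0.31 (adjusted p = 0.188), and 1.09 without penicillin chow 1 (adjusted p = 0.0175). The penicillin difference was 0.04 ± 0.31 on high-fat diet (95% interval -0.63 to 0.71) and 0.10 ± 0.31 on chow, where it was -0.29 without penicillin chow 1.

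Hmox1 is also expressed by Kupffer cells, the resident macrophages of the liver, which break down heme from red blood cells. Of 13 Kupffer cell and macrophage markers, 11 were higher on high-fat diet averaged over treatments and 0 lower, with a median of 0.68, where 9.63% of all genes were called higher. Their mean level was 9.24 to 9.88 in penicillin high-fat mice, 9.72 to 9.85 in control high-fat mice, 8.55 to 9.18 in penicillin chow mice and 9.23 to 9.38 in control chow mice. No marker was near the floor, the dimmest being Timd4 with a lowest value of 5.93, and the defining genes Clec4f and Vsig4 never fell under 9.27 and 9.43. Sinusoidal endothelial and stellate cell markers were higher for 5 of 6 and 4 of 6 in the same comparison. Of the heat shock genes 3 of 10 were higher there, with a median of 0.38. In penicillin chow 1, where Hmox1 stood at 7.89, the macrophage level was 9.18, under the lowest control chow mouse, whereas the acute-phase level was the highest of the 12. The macrophage levels of 8.76 and 8.55 belonged to penicillin chow 2 and 3, which also had a low 18S signal. The part of these genes in the Hmox1 values was not tested.

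**Figure D4:**
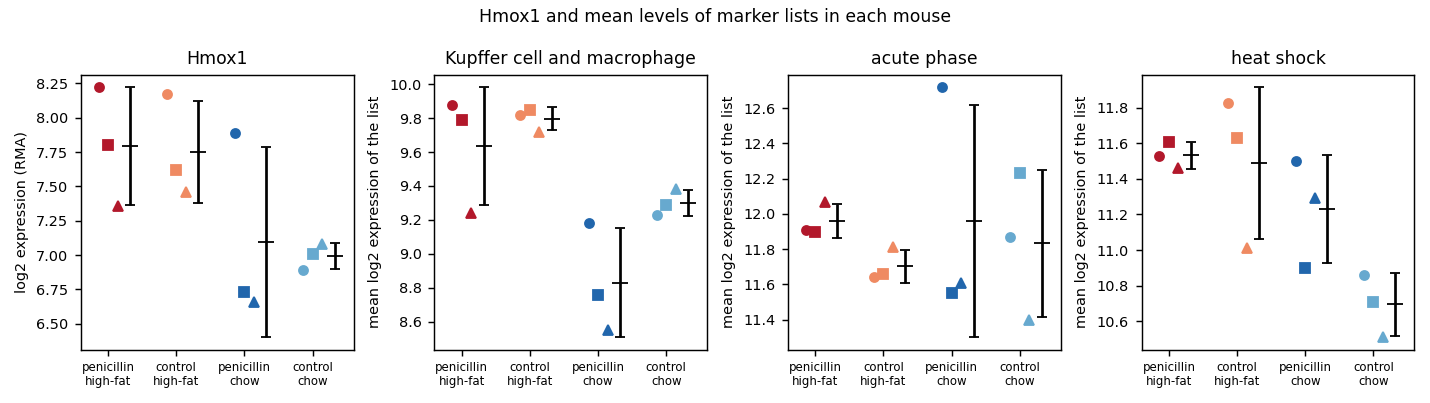
Hmox1 and the mean log2 level of the 13 Kupffer cell and macrophage markers, 17 acute-phase genes and 10 heat shock genes in each mouse, by group. Circles, squares and triangles are replicates 1, 2 and 3, and bars give the mean and SD (n = 3). Hmox1 and the macrophage markers are high in most high-fat mice, and penicillin chow 1 is the highest of all for the acute-phase genes at 12.72.

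High-fat diet gave no call among the members in control mice. limma called 0 of 8, where 0.899% of all genes were called, so this count says little. At an unadjusted p under 0.05 it gave 1 of 8, Hmox1, against 15.1% of all genes. The median of the 8 was 0.02. Hmox1 alone lay entirely above chow and Txnrd1 alone entirely below, where 12.4% of all genes lay above and 10.4% below. In penicillin mice 1 of 8 was called, where 8.32% of all genes were called, 6.43% of them higher. At an unadjusted p under 0.05 limma gave 3 of 8, against 24.5% of all genes. The median of the 8 was 0.32. Nqo1 and Gclc lay entirely above and Keap1 entirely below, against 15.6% and 12.3% of all genes. Averaged over treatments 2 of 8 were called, Nqo1 and Hmox1, against 14.5% of all genes. Each diet comparison shares high-fat mice with the penicillin comparison, so they are not independent.

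The wider NRF2 pathway was described with 8 lists of 72 genes, of which 61 were tested. These lists too were chosen with earlier results of these data known, which limits the comparisons with all genes. Under penicillin on high-fat diet 1 of 61 was called higher and 0 lower, against 0.254% and 0.087% of all genes. Of the 61, 47 were positive, their median was 0.17, and 22 lay entirely above the controls and 2 entirely below, against 9.5% and 7.85% of all genes. The gene called was Gstm3, a glutathione S-transferase, at 1.44 ± 0.19 (adjusted p = 0.00866). It stood at 11.27, 10.98 and 11.63 in penicillin high-fat mice, against 10.03, 9.89 and 9.65 in control high-fat mice, and was called in 12 of 12 refits with an array removed and, at 1.60, without the low-18S arrays (adjusted p = 0.0119). On chow it stood at 11.45, 11.75 and 11.24 in penicillin mice, against 11.52, 11.27 and 11.89 in control mice. The control high-fat mice alone were low: high-fat diet lowered Gstm3 in control mice by 1.71 ± 0.19 (adjusted p = 0.00423), while in penicillin mice the diet difference was -0.18 ± 0.19. Its interaction, 1.52 ± 0.28, did not pass (adjusted p = 0.135). For Nqo1, by contrast, the control high-fat mice overlapped both chow groups and the penicillin high-fat mice stood out.

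Gsta2, another glutathione S-transferase, also was lowest in control high-fat mice. Glutathione transferases include close paralogs, and cross-hybridisation between their probes was not tested. It fell by 1.85 ± 0.24 with high-fat diet in control mice (adjusted p = 0.00637), and stood at 10.86, 10.52 and 10.86 in penicillin high-fat mice, against 9.99, 9.87 and 9.32 in control high-fat mice and 11.02 to 12.08 on chow. Its penicillin difference on high-fat diet, 1.02 ± 0.24, did not pass (adjusted p = 0.118). Of the 18 conjugation and detoxification genes tested, 16 were positive for penicillin on high-fat diet. Their median was 0.50, 12 had an unadjusted p under 0.05, and 10 lay entirely above the controls, against 10.1% and 9.5% of all genes. The same 18 genes had a median of -0.31 under high-fat diet in control mice, where 10 lay entirely below (10.4% of all genes), and of 0.07 under high-fat diet in penicillin mice. These comparisons share mice. Ugdh, which makes the donor sugar of glucuronidation, was just outside the threshold at 0.80 ± 0.15 for penicillin on high-fat diet (adjusted p = 0.0501). Mgst3, a membrane-bound glutathione transferase and peroxidase, rose with high-fat diet in penicillin mice by 1.11 ± 0.18 (adjusted p = 0.00431), and by 0.64 with its probe sets averaged (adjusted p = 0.0134). For high-fat diet averaged over treatments 6 of the 18 were called lower and 1 higher, against 4.85% and 9.63% of all genes. The gene called higher was Mgst3, at 0.83 ± 0.13, or 0.43 with its probe sets averaged (adjusted p = 0.0125). Gsta2 fell by 1.35 ± 0.17, Gstm3 by 0.94 ± 0.14 and Gstp1 by 0.30, and these calls, like that of Mgst3, held in 12 of 12 refits with an array removed. The smaller falls of Gsta4, Gstm1 and Ugdh held in 3, 2 and 7 of 12. Without the low-18S arrays the calls of Gstp1, Gsta4, Gstm1 and Ugdh were lost (adjusted p = 0.0566, 0.123, 0.135 and 0.0882).

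**Figure D5:**
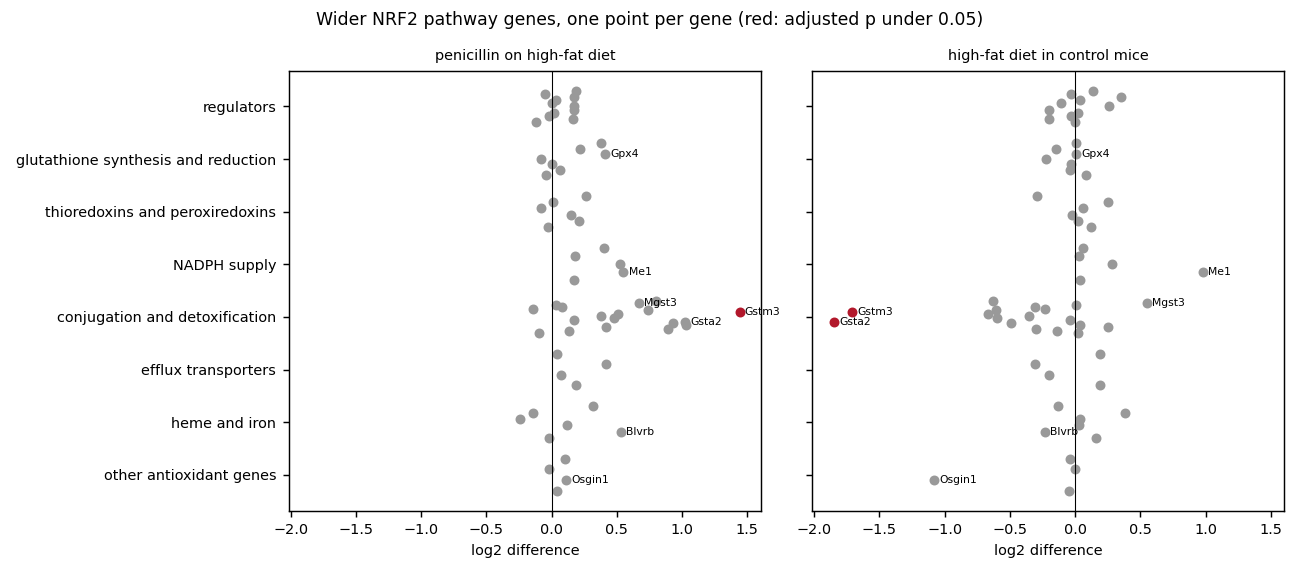
Log2 differences of the 61 tested genes of the wider NRF2 pathway, 1 point per gene, for penicillin on high-fat diet and for high-fat diet in control mice, both of which use the control high-fat mice. Red points passed at an adjusted p under 0.05. Gstm3 is red in both panels, at 1.44 and -1.71, and Gsta2 is red for the diet at -1.85.

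The genes that supply NADPH, the reductant of glutathione and thioredoxin, were 5 of 5 positive for penicillin on high-fat diet. Their median was 0.40, and limma called 0, with 3 at an unadjusted p under 0.05, against 0.341% and 10.1% of all genes. For high-fat diet in penicillin mice 3 of 5 were called higher, against 6.43% of all genes. These were malic enzyme Me1 at 0.93 ± 0.24 (adjusted p = 0.0326), and the pentose phosphate enzymes Pgd at 0.65 ± 0.14 (adjusted p = 0.0151) and Tkt at 0.42 ± 0.10 (adjusted p = 0.0214). Removing single arrays ended the Me1 call in 5 of 12 refits (without penicillin high-fat 1, 2 or 3 or penicillin chow 1 or 3), the Tkt call in 3 (without penicillin high-fat 1 or penicillin chow 1 or 3) and the Pgd call in 1 (without penicillin chow 3). Averaged over treatments, high-fat diet raised Me1 by 0.95 ± 0.17 and Pgd by 0.47 ± 0.10, and both calls held in 12 of 12 refits. Without the low-18S arrays the values in penicillin mice were 1.14 for Me1, 0.55 for Pgd and 0.52 for Tkt, and these calls were lost. Each is then a comparison with penicillin chow 1 alone. With probe sets averaged the Tkt value was 0.30 and was not called (adjusted p = 0.0654).

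Among 7 glutathione genes, limma called 0 for penicillin on high-fat diet, with 2 at an unadjusted p under 0.05, against 0.341% and 10.1% of all genes. Gpx4, the peroxidase that reduces lipid hydroperoxides, stood at 12.90, 12.76 and 12.92 in penicillin high-fat mice, against 12.49, 12.47 and 12.40 in control high-fat mice. That difference of 0.41 ± 0.09 did not pass (adjusted p = 0.0774), while high-fat diet in penicillin mice raised Gpx4 by 0.36 ± 0.09 (adjusted p = 0.0247), a call lost without penicillin high-fat 1 or 3 or penicillin chow 1. Without the low-18S arrays these differences were 0.46 for penicillin on high-fat diet and 0.59 for high-fat diet in penicillin mice. The second is a comparison with penicillin chow 1 alone, the lowest of the 12 mice for Gpx4 at 12.32. Glutathione reductase, Gsr, gave 0.22 ± 0.10 for penicillin on high-fat diet (adjusted p = 0.476). Of 6 thioredoxin and peroxiredoxin genes and 4 efflux transporters, limma called 0 in that comparison, with medians of 0.08 and 0.13. In each list 1 gene had an unadjusted p under 0.05, against 10.1% of all genes. The mitochondrial thioredoxin reductase, Txnrd2, rose by 0.30 with high-fat diet averaged over treatments (adjusted p = 0.0385), a call kept in 3 of 12 refits. Of 6 heme and iron genes limma called 0 for penicillin on high-fat diet, with 3 at an unadjusted p under 0.05 (10.1% of all genes). Among them Blvrb, a biliverdin reductase gene, stood at 0.53 ± 0.13 (adjusted p = 0.132). The other biliverdin reductase gene of the list, Blvra, gave -0.02 (adjusted p = 0.964).

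Of 11 regulators around NRF2 limma called 0 for penicillin on either diet. Of all genes 0.341% were called on high-fat diet and 0.00725% on chow, so a count of 0 of 11 says little. At an unadjusted p under 0.05 limma gave 0 on high-fat diet and 1 on chow, against 10.1% and 7.62% of all genes. The p62 gene Sqstm1, whose protein competes for KEAP1, gave 0.19 ± 0.11 on high-fat diet and 0.22 ± 0.11 on chow. High-fat diet averaged over treatments raised the related factor Nfe2l1 by 0.33 ± 0.09 (adjusted p = 0.0256; kept in 6 of 12 refits) and lowered the kinase gene Gsk3b by 0.20 ± 0.06 (adjusted p = 0.0408; kept in 2 of 12 refits, and lost without the low-18S arrays, adjusted p = 0.139, and with probe sets averaged, adjusted p = 0.215). Osgin1, a stress-induced growth inhibitor, fell by 0.99 ± 0.24 with high-fat diet averaged over treatments (adjusted p = 0.0174), a call kept in 12 of 12 refits and lost without the low-18S arrays, at -0.69 (adjusted p = 0.164). Nqo1 is also a target of the aryl hydrocarbon receptor. Of 6 tested genes of this receptor and of CAR, another xenobiotic sensor, 5 were positive for penicillin on high-fat diet. The median of the 6 was 0.14. Of the 6, 2 lay entirely above the controls and 1 entirely below, against 9.5% and 7.85% of all genes. The receptor's main hepatic target Cyp1a2 fell by 0.49 ± 0.09 with penicillin on high-fat diet (adjusted p = 0.0446), where 0.087% of all genes were called lower. For this gene the refits with an array removed also filtered the genes anew. The call was kept in 3 of 12 of them, with values of -0.52 to -0.46. It was lost without any 1 of the 6 high-fat mice, penicillin chow 2 or 3 or control chow 2. Cyp1a1 gave 0.26 ± 0.12 for penicillin on high-fat diet and did not pass (adjusted p = 0.477). The part of this receptor in the Nqo1 values was not tested.

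The tested genes whose centred values lay closest to those of Nqo1 over the 12 arrays were Pmm1, Comtd1, 1810058I24Rik, Anxa5 and Bet1, with root mean square differences of 0.184 to 0.191 log2 units, against an SD of 0.387 for Nqo1 itself. Comtd1 stood at 8.59, 7.99 and 8.21 in penicillin high-fat mice, against 7.50, 7.40 and 7.39 in control high-fat mice, and was the 1 of the 5 that passed for penicillin on high-fat diet, at 0.84 ± 0.12 (adjusted p = 0.0126). The genes closest to Hmox1 were Acer2, Ms4a6d, Jdp2, Cd44 and Osmr, with differences of 0.157 to 0.223 against an SD of 0.539. Acer2 stood at 8.33, 7.94 and 7.74 in penicillin high-fat mice, 8.43, 7.72 and 7.80 in control high-fat mice, 7.88, 7.13 and 7.0 in penicillin chow mice and 7.16, 7.37 and 6.98 in control chow mice. Like Hmox1, it was high in penicillin chow 1. Nearness in this measure is a description over 12 shared arrays.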

How the data were processed

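Liver RNA of 12 mice was measured on Affymetrix expression arrays, 1 per mouse. The deposited log2 values of 45101 probe sets were made by the authors with RMA (package affy), as the submitters' processing notes state without versions. RMA corrects background, equalises the intensity distribution of all arrays and summarises each probe set, so changes are relative to the bulk of genes. Array medians lay between 5.52 and 5.59.

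Gene names came from the platform annotation in GEO, where 34945 probe sets had 1 symbol, 932 several, 9160 none and 64 were controls. A RefSeq table (GRCm38.p6) held the IDs of 34741 of these and altered 0 symbols. The brightest probe set stood for each of 18193 genes. Tested were the 13788 that exceeded log2 5, the 40th percentile, on at least 3 arrays.

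limma 3.58.1 in R 4.3.3 was fitted to 4 group means on all 12 arrays (8 residual degrees of freedom) with eBayes and Benjamini-Hochberg adjustment over all genes tested, at 0.05, for 7 contrasts. The code was tested on simulated data. The labels call the replicates biological. Precision is limited by the number of arrays; standard errors had a median of 0.10, and of 0.15 for the interaction. Detection calls, cage and scan batch were not used here.

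The 8 members and the gene lists were chosen with earlier results of these data known. Named genes are the members, pathway genes that passed or had the smallest p in their list, and the 5 genes closest to Nqo1 and to Hmox1. Other pathway or marker genes named beside a result were chosen after their values were seen. Replicate numbers were not treated as pairs. Correlations of same-numbered deviations ranged from -0.23 to 0.172. Differently numbered mice were not correlated for reference, so these values cannot decide whether the mice were paired.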

Additional observations from a re-analysis of the deposited data

How the results depend on the processing

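Over 25 or 26 alternatives per comparison, Nqo1 kept its direction in both comparisons with the penicillin high-fat mice and was called in 23 of 26 for penicillin on high-fat diet and in 26 of 26 for high-fat diet in penicillin mice. The number of members called for penicillin on high-fat diet, 1 of 8, was 0 to 2 when single arrays were left out, 2 with probe sets averaged (with Nfe2l2) and 2 without the 3 arrays of low 18S signal (with Srxn1). For high-fat diet in penicillin mice, 1 of 8, it was 1 to 3 with single arrays left out, 2 with probe sets averaged, with array weights and at an adjusted p under 0.10, and 4 without the low-18S arrays, where Gclm and Nqo1 were higher, Srxn1 reversed to -0.61, Txnrd1 was -0.43, and penicillin chow 1 was the 1 mouse left in its group. For penicillin on chow the count of 0 became 2 (Srxn1 and Txnrd1) without those arrays, with that lone mouse assumed to vary like the other groups. For penicillin averaged over diets the count of 0 was 0 to 1 with single arrays left out, 1 with array weights and at an adjusted p under 0.10, and 2 without the low-18S arrays. For high-fat diet averaged over treatments the count of 2 was 1 to 3 with single arrays left out, 1 after centring on the median of genes tested, 1 with trend and robust variance, 1 with a 1.5-fold minimum, 3 with probe sets averaged (with Nfe2l2), 3 without the low-18S arrays (Nfe2l2, Nqo1 and Txnrd1, with Hmox1 lost) and 4 at an adjusted p under 0.10. With the replicate number as a block the member counts were 0, 1, 0, 1, 0, 0 and 2 in the 7 comparisons, and 0 of 56 member calls changed. The count of all genes called for penicillin on high-fat diet was 35 with the block, against 47. It was 70 against 124 for high-fat diet in control mice and 2 against 20 for penicillin averaged over diets. Over all settings the count of genes called ran from 21 to 183 for penicillin on high-fat diet (47 as reported), 0 to 251 on chow (1), 21 to 571 for high-fat diet in control mice (124), 482 to 1933 in penicillin mice (1147), 0 to 24 for the interaction (6), 2 to 416 for penicillin averaged (20) and 373 to 3050 for diet averaged (1997). Fits on the compared arrays alone gave no value for the interaction and the averages. The median of all genes stayed between -0.059 and 0.017. The causes were not tested.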
